A study of Mus musculus with 18 samples.

Results

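Ly6a, Ly6c1 and Ly6e encode 3 small cell surface proteins of the Ly6/uPAR family, and they are 3 of the 33440 genes in the summed table of this series, which includes genes without reads and 883 transcripts that matched no gene and were kept on their own. They were picked by name for their measured pattern: library-scaled read counts (CPM) in every library, the FI3OE against WT difference, the FI3KO against WT difference, and their level in each WT group. All values of these genes in those comparisons are therefore given as a description, without a test. All 3 passed the filter on low counts in both comparisons. The series addressed which genes lie downstream of the transcription factor IRF3 in mouse adipocytes, by RNA-seq of 18 libraries on a C57BL/6 background.

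Adipocytes made in culture from the stromal vascular fraction (SVF) of inguinal white adipose tissue (iWAT) formed the first experiment. All 6 cultures came from IRF3-2D mice (written IRF-2D in the labels), whose constitutively active Irf3 allele is silent until Cre recombinase acts. The cells received AAV carrying GFP (WT, 3 libraries) or AAV with Cre (FI3OE, 3 libraries) on day 6 and were harvested on day 8, so FI3OE also differed from WT by Cre itself, and WT held the unrecombined allele. In the second experiment, ribosome-bound RNA of epididymal adipose tissue (eWAT) was isolated by translating ribosome affinity purification (TRAP), in which an antibody to GFP pulls down a tagged ribosomal protein. These were Ad-NuTRAP mice (WT, 6 libraries) and FI3KO-Ad-NuTRAP mice lacking Irf3 in adipocytes (FI3KO, 6 libraries), all after 8 weeks of HFD at thermoneutrality. The tag and the deletion both depended on Cre driven by the Adipoq promoter, which is active in adipocytes. The labels call the libraries biological replicates without naming the mouse or culture behind each, so spread between libraries is all that the errors measure.

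Ly6/uPAR proteins share a compact fold of disulfide-linked loops, known as the three-finger domain, and most are held in the outer leaflet of the plasma membrane by a glycosylphosphatidylinositol (GPI) anchor. Ly6a encodes Sca-1, the stem cell antigen used to isolate haematopoietic stem cells and adipose progenitors. Ly6c1, with its near-identical neighbour Ly6c2, encodes the Ly-6C antigen of endothelium, monocytes and some T cells. Ly6e encodes a widely expressed protein that affects the entry of several viruses and serves as the receptor for syncytin-A in the mouse placenta. All 3 are known as interferon-responsive genes in many cell types, and IRF3 is a factor that switches on type I interferon and part of its target genes.

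The 3 genes sit in 1 cluster on chromosome 15 of the GRCm38 assembly. Ly6e (ENSMUSG00000022587) lies at chr15:74955051-74959905 on the plus strand. Ly6a (ENSMUSG00000075602, chr15:74994877-74998031) and Ly6c1 (ENSMUSG00000079018, chr15:75044018-75048830) lie on the minus strand, 46.0 kb apart, and Ly6c2 begins 59.3 kb beyond Ly6c1. The first 90 coding bases of the transcript that represents each gene are shown because they let a reader see how close Ly6a is to Ly6c1 and Ly6c2. Capitals mark bases that differ from Ly6c1 at the same position, and Ly6e is all in lower case because no ungapped alignment to Ly6c1 covered this stretch.
Ly6c1: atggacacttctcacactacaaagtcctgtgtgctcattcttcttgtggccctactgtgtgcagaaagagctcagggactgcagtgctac
Ly6c2: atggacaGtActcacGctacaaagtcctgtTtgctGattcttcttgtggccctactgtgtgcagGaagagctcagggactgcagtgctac
Ly6a: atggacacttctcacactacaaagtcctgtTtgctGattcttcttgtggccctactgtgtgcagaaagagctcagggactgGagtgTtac
Ly6e: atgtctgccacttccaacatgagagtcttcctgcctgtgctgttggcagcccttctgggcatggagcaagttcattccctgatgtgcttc

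Ly6a differed from Ly6c1 at 4 of these 90 positions and Ly6c2 at 6. Over the whole coding sequence, 405 bases for Ly6a, 396 for Ly6c1 and 411 for Ly6e, identity was 83.8% between Ly6a and Ly6c1, 97.7% between Ly6c1 and Ly6c2, and 57.4% between Ly6a and Ly6e. Such closeness limits how firmly a read can be given to one gene. Of all 31-base words in the Ly6c1 transcripts, 46.8% also occurred in transcripts of another gene, mostly Ly6c2, compared with 31.9% for Ly6a and 0.422% for Ly6e. Salmon, the program that made the deposited values, divides shared reads by estimation, so the Ly6c1 values in particular are estimates. Ly6c2 received few reads, 1.29% as many as Ly6c1 in WT SVF-derived adipocytes and 9.80% as many in WT TRAP libraries. Those reads lay almost wholly on Ly6c2-202, a transcript with a retained intron, which took 98.5% and 97.4% of Ly6c2 reads in these 2 groups.

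Of the 3 genes, Ly6c1 had a promoter entry in the RefSeq table used here (GRCm38.p6), with 2 start sites. The 250 bases before the first of them, chr15:75048838-75049087 on the minus strand, are shown because the genes moved with active IRF3, whose family recognises repeats of GAAA. Capitals mark GAAA and its reverse complement TTTC.
Ly6c1 promoter: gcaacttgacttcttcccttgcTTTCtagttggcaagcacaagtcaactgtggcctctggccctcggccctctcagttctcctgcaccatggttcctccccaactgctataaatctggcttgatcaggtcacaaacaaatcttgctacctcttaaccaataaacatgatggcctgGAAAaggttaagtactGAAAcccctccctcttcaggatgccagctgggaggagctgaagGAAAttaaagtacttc

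This stretch held 4 copies, while the median over 32851 promoters was 2 and 28.9% of them held at least as many. A pair of GAAA repeats spaced by 2 bases, searched on both strands in the full window of 300 bases, had no match at either Ly6c1 start site and a match in 3.44% of all promoters. TTCNNNGAA, searched in the same way, had no match there either and a match in 8.30% of all promoters. These motifs can overlap one another, and the absence of a match says only that the letters are not in this window.

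The libraries held 21541334 to 40490283 reads and were checked against their labels first. Irf3 itself was at 58.6, 56.9 and 56.8 CPM in WT SVF-derived adipocytes and at 92.1, 100.3 and 90.8 CPM in FI3OE. In the TRAP libraries Irf3 reads remained in FI3KO, at 12.4 to 18.8 CPM (median 15.2) against 17.2 to 23.2 CPM (median 20.6) in WT, and the groups overlapped. The transcript Irf3-202 separated them: it had 0 reads in each FI3KO library and between 163.6 and 388.1 in the WT libraries. By the quasi-likelihood test of edgeR over all genes, Irf3 rose by a log2 fold change of 0.73 (SE 0.046, adjusted p = 3.3e-07) in FI3OE and fell by 0.35 (SE 0.106, adjusted p = 0.0198) in FI3KO. Scaled for transcript length the FI3KO direction turned: Irf3 was at 55.0 to 93.5 TPM in FI3KO and 37.8 to 47.3 TPM in WT, without overlap. Adipoq, the defining adipocyte gene, was at 751 CPM or more in every library of the WT and FI3OE cultures and at 1614 CPM or more in every TRAP library. The most abundant adipocyte marker was Lpl, at 5164 CPM in the WT cultures and 10826 CPM in WT TRAP libraries, and the most abundant endothelial markers were Flt1 (43.4 CPM) in the former and Ptprb (15.3 CPM) in the latter. The cultures were not adipocytes alone: Pdgfra, a progenitor gene, averaged 442 CPM and Adgre1, a macrophage gene, 233 CPM in the WT cultures, against 2.75 and 4.32 CPM in WT TRAP libraries. In bulk RNA of this kind, fewer cells of a type and less RNA per cell cannot be told apart.

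Active IRF3 was accompanied by higher levels of all 3 genes in SVF-derived adipocytes. Ly6a was at 392, 402 and 376 CPM in the WT libraries and at 1341, 1454 and 1327 CPM in FI3OE. Every FI3OE library was above every WT library, and the fitted log2 fold change was 1.83 (SE 0.045), or 3.52-fold from the group means of 390.0 ± 12.8 and 1374 ± 69.9 CPM (SD, n = 3 each). Ly6a was the member with the largest difference.

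Ly6c1 was at 107, 101 and 97.8 CPM in WT and at 245, 265 and 247 CPM in FI3OE, a log2 fold change of 1.32 (SE 0.047). Ly6e was at 362, 354 and 346 CPM in WT and at 870.2, 919 and 822 CPM in FI3OE, a log2 fold change of 1.32 (SE 0.044). The groups did not overlap for any of the 3 genes. By comparison, the FI3OE libraries lay wholly above the WT libraries for 24.1% of the 16105 genes tested, and the median log2 fold change of all genes was 0.00. Because this comparison helped to choose the genes, nothing is read from that count. Read numbers behind these values were between 2178 and 48995 per gene and library.

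**Figure D1:**
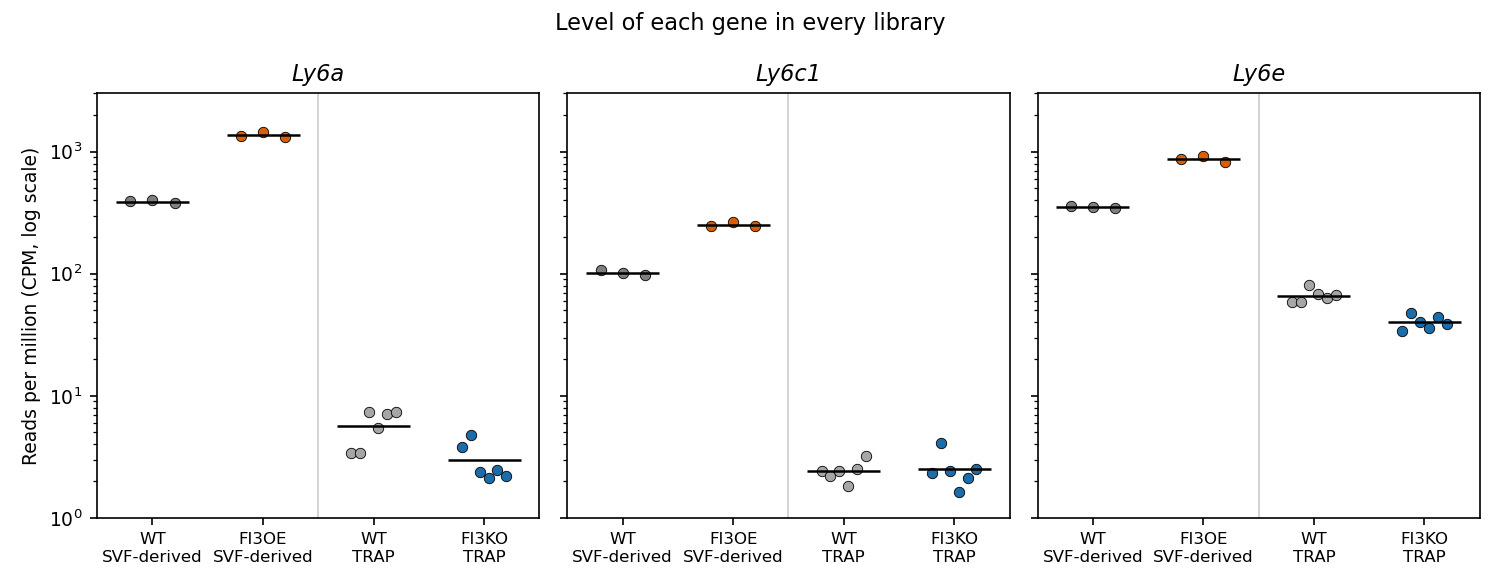
Library-scaled reads (CPM, log scale) of Ly6a, Ly6c1 and Ly6e in each of the 18 libraries; each point is a library, horizontal bars are group means, and a grey line separates the 2 experiments. In the SVF-derived adipocytes every FI3OE library lies above every WT library, while in the TRAP libraries the FI3KO and WT points are apart for Ly6e and overlap for Ly6a and Ly6c1.

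The rise was not even across the genes, and it changed their order. Levels of different genes are compared here per transcript length, in TPM, which is scaled for length and library size. In WT SVF-derived adipocytes Ly6e was highest, at 1015 to 1102 TPM, followed by Ly6a at 816 to 881 TPM and Ly6c1 at 313 to 326 TPM, with no overlap between neighbours. In FI3OE Ly6a came first, at 2784 to 3039 TPM, then Ly6e at 2448 to 2692 TPM and Ly6c1 at 751 to 802 TPM, again with no overlap. The ratio of Ly6a to Ly6e TPM moved from 0.796 ± 0.0099 in WT to 1.13 ± 0.015 in FI3OE (SD, n = 3 each), whereas that of Ly6c1 to Ly6e was 0.298 ± 0.014 and 0.302 ± 0.010. Within genes the same transcripts carried the reads in both groups. Ly6a-201 took 90.4% of Ly6a reads in WT and 90.3% in FI3OE, Ly6c1-201 took 64.2% and 63.9% of Ly6c1 reads, and Ly6e-215 took 54.6% and 53.4% of Ly6e reads. In the TRAP libraries Ly6a-201 took 87.3% of Ly6a reads in WT and 73.7% in FI3KO, where 1 library had none on it.

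Markers of other cells were compared in the same libraries. The summed level of 14 progenitor markers, mostly Col1a1 and Col3a1, was 15173 to 15655 CPM in WT and 14425 to 14624 CPM in FI3OE. That of 18 macrophage markers was 2645 to 2821 and 2687 to 2731 CPM. The sum of 16 endothelial markers was 77.9 to 80.3 CPM in WT and 76.7 to 85.8 CPM in FI3OE. In the WT cultures most of the endothelial sum was Flt1, at 43.4 CPM, while Pecam1 was at 1.32 CPM and Cdh5 at 1.87 CPM. The sum thus says little of these 2 genes. Among endothelial markers 1 of the 12 tested met both cutoffs, an adjusted p of at most 0.05 and a difference of 1 or more on the log2 scale, up or down. It was Sox18, a vascular transcription factor, which fell by 1.75 (SE 0.418, adjusted p = 0.00658), where 1.63% of all genes tested were lower past both cutoffs. No progenitor or macrophage marker met both cutoffs by edgeR, of 14 and 17 tested. Of all genes tested 1.99% were higher and 1.63% lower past both cutoffs. At an unadjusted p under 0.05 the marker counts were 10 and 11. No share of all genes is given there, so nothing is read from these counts. Single markers moved both ways within these sums: without the fold-change cutoff 5 progenitor markers were higher and 2 lower, and 6 macrophage markers higher and 4 lower, where 20.2% and 16.8% of all genes tested were. The part of these cells in the values of the 3 genes was not tested.

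In the TRAP libraries from eWAT the 3 genes parted. Ly6e was at 58.3, 58.5, 81.2, 68.6, 63.6 and 67.1 CPM in WT and at 33.8, 48.0, 40.4, 35.8, 44.3 and 38.7 CPM in FI3KO, in the order of the replicate numbers. Every FI3KO library was below every WT library, with group means of 40.2 ± 5.31 and 66.2 ± 8.50 CPM (SD, n = 6 each) and a log2 fold change of -0.67 (SE 0.093). Wholly separate groups with FI3KO lower occurred for 9.82% of the 13624 genes tested.

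Ly6a was scarce here. It was at 3.39, 3.37, 7.34, 5.41, 7.03 and 7.40 CPM in WT and at 3.80, 4.80, 2.37, 2.10, 2.47 and 2.21 CPM in FI3KO, from 64 to 239 reads per library, and the groups overlapped. The overlap came from replicates 1 and 2. In replicates 3 to 6 FI3KO was at 2.10 to 2.47 CPM and WT at 5.41 to 7.40 CPM, a log2 fold change of -1.52 (SE 0.132), while in replicates 1 and 2 both FI3KO libraries were above both WT libraries, with 0.41 (SE 0.175). Over all 12 libraries the value was -0.87 (SE 0.268), so the direction for Ly6a depended on which replicates were used.

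Ly6c1 was at 2.42, 2.19, 2.43, 1.81, 2.49 and 3.22 CPM in WT and at 2.34, 4.12, 2.41, 1.64, 2.10 and 2.53 CPM in FI3KO, from 53 to 128 reads per library. Its groups overlapped throughout, and the log2 fold change of 0.11 (SE 0.212) was smaller than its error. Without FI3KO replicate 2, the highest library, it was -0.10 (SE 0.170).

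Replicates 1 and 2 stood apart from replicates 3 to 6 in Ly6a and in the marker sums given next, and the labels name no batch. By the chi-square per gene between libraries of a group the split depended on the statistic. In FI3KO the mean was 101 to 243 across it and 15.6 to 79.3 within replicates 3 to 6, but the median overlapped, at 4.50 to 7.16 and 1.47 to 4.54. In WT the median was 4.18 to 5.90 across it and 1.24 to 4.00 within replicates 3 to 6, but the mean overlapped, since replicates 3 and 5 were at 115. WT replicates 1 and 2 were the closest pair of all, with a mean chi-square per gene of 2.49 against 7.81 to 118 between other pairs of WT TRAP libraries; sampling alone would give 1, and they were kept as 2 samples. Progenitor, macrophage and T and NK cell sums were lower in FI3KO in replicates 3 to 6, as Ly6a was, and near WT in replicates 1 and 2, where Ly6a was higher. The summed progenitor markers were at 1629 to 2290 CPM in WT and 584 to 974.8 CPM in FI3KO in replicates 3 to 6, but at 1048 to 1056 and 1043 to 1080 CPM in replicates 1 and 2. The summed macrophage markers were at 96.5 to 143 CPM in WT and 17.9 to 22.4 CPM in FI3KO in replicates 3 to 6, and at 57.3 to 57.8 and 46.7 to 60.6 CPM in replicates 1 and 2. The summed T and NK cell markers were at 2.95 to 3.85 CPM in WT and 0.371 to 0.766 CPM in FI3KO in replicates 3 to 6, and at 1.82 to 1.93 and 1.504 to 1.93 CPM in replicates 1 and 2. Over all libraries 13 of 15 macrophage markers tested met both cutoffs and were lower in FI3KO, as were 4 of 13 progenitor markers and 4.87% of all genes tested, while Dcn, a matrix proteoglycan gene, was higher (log2 fold change 1.36, SE 0.242, adjusted p = 0.00117 by edgeR). Col1a1 and Col3a1 made up most of the progenitor sum, so it says little of the scarcer markers. Col1a1, the most abundant progenitor marker in WT, averaged 1005 CPM there and 271 CPM in FI3KO. Col3a1 averaged 552 and 473 CPM (log2 fold change -0.17, SE 0.170, adjusted p = 0.446 by edgeR) and Pdgfra 2.75 and 2.40 CPM (-0.13, SE 0.356, adjusted p = 0.798). Lyz2, the most abundant macrophage marker in WT, averaged 16.1 CPM there and 5.09 CPM in FI3KO. Epididymal markers summed to 1.31 and 1.35 CPM in FI3KO replicates 1 and 2, to 0 in FI3KO replicates 3 to 6 and to at most 0.0664 CPM in WT. The part of all these cells in the Ly6a values was not tested. Ly6e was lower in FI3KO within both sets, by 0.77 (SE 0.086) in replicates 3 to 6 and 0.45 (SE 0.150) in replicates 1 and 2 on the log2 scale.

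**Figure D2:**
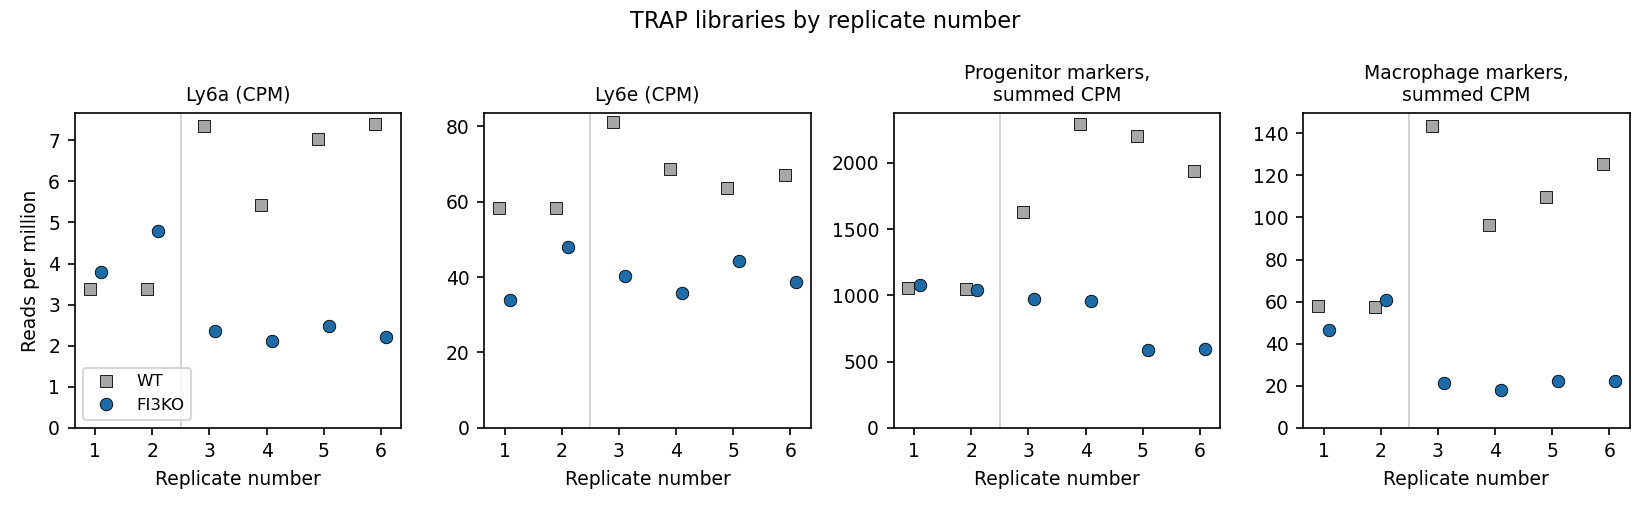
TRAP libraries by replicate number: CPM of Ly6a and Ly6e and the summed CPM of 14 progenitor and 18 macrophage markers, squares for WT and circles for FI3KO, with a line between replicates 2 and 3. Ly6e is lower in FI3KO at every number, whereas Ly6a and both marker sums are lower in FI3KO at numbers 3 to 6. At numbers 1 and 2 Ly6a is higher in FI3KO and the marker sums of the groups lie close together. The progenitor sum is mostly Col1a1 and Col3a1.

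Endothelial markers, which mark another cell type known for Ly6c1 and Ly6a, followed a different course. Their sum was at 54.7 to 103.5 CPM in WT and 49.9 to 217.6 CPM in FI3KO, and the 2 highest libraries were FI3KO replicates 1 and 2, at 135 and 218 CPM. Ly6a was also highest among FI3KO libraries in these 2, at 3.80 and 4.80 CPM. In WT replicates 1 and 2 the endothelial sum was 73.0 and 81.1 CPM, and Ly6a was at 3.39 and 3.37 CPM. In replicates 3 to 6, where Ly6a was lower in FI3KO, the endothelial sums overlapped, at 49.9 to 76.2 CPM in FI3KO and 54.7 to 103.5 CPM in WT. Ly6c1 was highest of the 12 in FI3KO replicate 2, but was at 2.34 CPM in FI3KO replicate 1, within the range of the others, and its next highest value, 3.22 CPM, was in WT replicate 6, where the endothelial sum was 80.2 CPM. Of 15 endothelial markers tested, 14 had a fitted value above 0 in FI3KO. Their median log2 fold change was 0.43, against 0.02 over all genes tested. At an unadjusted p under 0.05 there were 3. No share of all genes is given for either count, so neither is read as a result. Past both cutoffs 1 was higher, where 1.74% of all genes tested were. It was Cldn5, a tight junction gene of vessels (log2 fold change 1.18, SE 0.335, adjusted p = 0.0147 by edgeR). Pecam1 and Cdh5, defining genes of endothelium, averaged 6.40 and 6.27 CPM in WT TRAP libraries and 8.66 and 7.87 CPM in FI3KO. Neither met the adjusted p cutoff by edgeR (Pecam1 0.49, SE 0.317, adjusted p = 0.237, and Cdh5 0.38, SE 0.297, adjusted p = 0.33). Their FI3KO libraries ran from 4.52 to 19.1 CPM and from 4.24 to 17 CPM. The part of endothelial RNA in the Ly6c1 and Ly6a values was not tested.

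The level of the 3 genes before any change in IRF3 differed widely between the WT groups. Ly6e was at rank 81 of 23848 genes with reads in WT SVF-derived adipocytes, ordered by mean TPM, Ly6a at rank 113 and Ly6c1 at rank 389. In the WT TRAP libraries Ly6e was at rank 688 of 23403 genes, Ly6a at rank 7486 and Ly6c1 at rank 8517. Mean CPM was 68.9-fold higher in the cultures for Ly6a, 42.1-fold for Ly6c1 and 5.35-fold for Ly6e. The order of levels in WT TRAP libraries was Ly6e, at 203 to 287 TPM, then Ly6a at 7.44 to 17.6 TPM and Ly6c1 at 4.91 to 12.0 TPM, and the last 2 overlapped. In FI3KO Ly6e was at 100.2 to 155 TPM, Ly6c1 at 6.39 to 15.9 TPM and Ly6a at 5.09 to 10.4 TPM, with the last 2 again overlapping.

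The other family genes went both ways between the WT groups. Lypd1 averaged 5.49 CPM in the WT cultures and 0.116 CPM in WT TRAP libraries, the urokinase receptor gene Plaur 5.545 and 0.572 CPM, and Ly6c2 1.32 and 0.247 CPM, so these were higher in the cultures as Ly6a, Ly6c1 and Ly6e were. Cd59a, whose product shields cells from the membrane attack complex of complement, averaged 2.62 CPM in the WT cultures and 137 CPM in WT TRAP libraries, 52.2-fold higher in the latter. Gpihbp1, which carries lipoprotein lipase across capillary endothelium, was 29.5-fold higher in TRAP libraries, although from 1 or 2 reads in each WT culture, and Lynx1, a modulator of nicotinic receptors, was 1.09-fold higher in the cultures. The WT groups differed in fat depot, culture, AAV transduction, diet, genotype, cell composition and RNA isolation at once, and these cannot be told apart. Summed progenitor markers, mostly Col1a1 and Col3a1, were at 15173 to 15655 CPM in the WT cultures and 1048 to 2290 CPM in WT TRAP libraries. Summed macrophage markers were at 2645 to 2821 and 57.3 to 143 CPM. The part of these cells in the levels of the 3 genes was not tested.

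**Figure D3:**
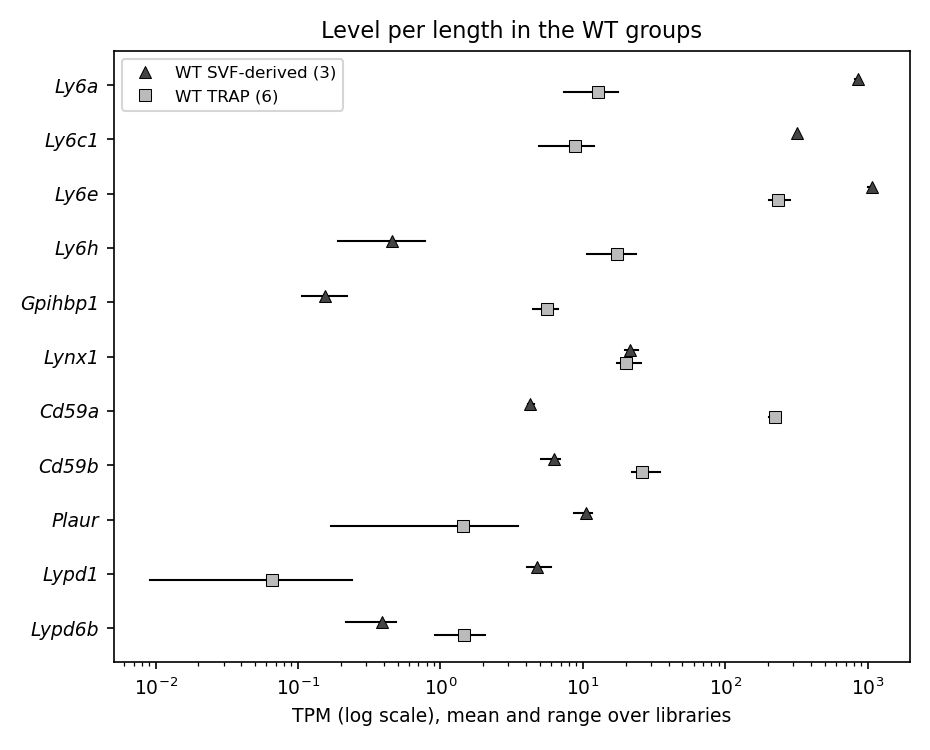
Length-scaled levels (TPM, log scale) in the WT groups for Ly6a, Ly6c1, Ly6e and the other family genes with a mean of at least 1 TPM in either group; markers are means and black lines run from the lowest to the highest library (3 SVF-derived, 6 TRAP). Ly6a and Ly6c1 are far higher in SVF-derived adipocytes, and Cd59a is far higher in TRAP libraries.

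To see how the rest of the family behaved, a list of 43 other Ly6/uPAR genes was followed in the same fits. A row was found for 38, of which 25 were too low to be tested in either comparison and 9 had no read in any of the 18 libraries. In FI3OE 11 were tested, and 3 rose and 1 fell past both cutoffs, where 1.99% and 1.63% of all genes tested did so. The median log2 fold change of the 11 was 0.52. Ly6d, a marker of early B cells and epithelium, rose by 1.78 (SE 0.423, adjusted p = 0.00639 by edgeR) from 0.199 to 0.683 CPM on average. Lypd6, a regulator of Wnt signalling, rose by 1.57 (SE 0.272, adjusted p = 0.000813), and its relative Lypd6b by 1.28 (SE 0.339, adjusted p = 0.0118). Lypd1, which binds nicotinic receptors in brain, fell by 1.58 (SE 0.170, adjusted p = 2.31e-05), from 5.49 to 1.83 CPM. These genes were far scarcer than Ly6a, Ly6c1 and Ly6e, and the calls on the first 3 of them were lost under some settings: all 18 libraries in 1 fit gave adjusted p = 0.16 for Ly6d and 0.0697 for Lypd6b, and an offset for transcript length gave 0.139 for Lypd6. Over all alternatives the adjusted p ranged from 0.00474 to 0.16 for Ly6d, 0.000154 to 0.139 for Lypd6 and 0.00756 to 0.0697 for Lypd6b.

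Without the fold-change cutoff, 5 family genes were higher and 1 lower, where 20.2% and 16.8% of all genes tested were. The additional ones were Lynx1 and Ly6c2. Lynx1 was higher in FI3OE by 0.52 (SE 0.047, adjusted p = 6.03e-06 by edgeR) and Ly6c2 by 0.61 (SE 0.203, adjusted p = 0.0362, or 0.0231 to 0.581 over the alternatives). Ly6i, which lies between Ly6e and Ly6a, had a log2 fold change of 0.71 (SE 0.399, adjusted p = 0.192). The remaining genes tested, Cd59a, Cd59b, the urokinase receptor gene Plaur and 2010109I03Rik, ranged from -0.13 to 0.42 with adjusted p of 0.0599 or more.

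In the TRAP comparison 8 family genes were tested, with a median log2 fold change of -0.28. Lypd1 was higher in FI3KO by 2.67 (SE 0.433, adjusted p = 0.000703 by edgeR), from 0.116 to 0.749 CPM on 1 to 9 reads per WT library, the only 1 past both cutoffs, where 1.74% of all genes tested were higher and 4.87% lower. Over the alternatives its adjusted p was 1.42e-06 to 0.102. Cd59b, the second complement regulator of its pair, was higher by 0.61 (SE 0.118, adjusted p = 0.00186; 0.24 with adjusted p = 0.283 in replicates 1 and 2 alone, and 1.83e-05 to 0.283 over the alternatives), where 19.1% of all genes tested were higher and 18.3% lower without the fold-change cutoff. Lynx1 was lower by 0.76 (SE 0.122, adjusted p = 0.000631) and was at 15.3 to 25.0 CPM in FI3KO and 31.2 to 43.7 CPM in WT, without overlap. In replicates 1 and 2 alone it was at -0.33 (adjusted p = 0.0851), and its adjusted p over the alternatives was 7.04e-08 to 0.0851. Cd59a, Gpihbp1, Ly6h, Lypd6b and Plaur had log2 fold changes between -0.66 and 0.39 and adjusted p of 0.0866 or more. Over the alternatives the adjusted p was 0.0162 to 0.617 for Cd59a, 0.0919 to 0.899 for Gpihbp1 and 0.000932 to 0.374 for Ly6h. It was 0.0143 to 0.379 for Lypd6b and 0.00983 to 0.762 for Plaur. Plaur and Ly6h had opposite signs in the 2 replicate sets, like Ly6a: 2.32 and 0.65 in replicates 1 and 2, -1.93 and -1.01 in replicates 3 to 6. Gpihbp1 was at -0.04 in replicates 3 to 6 and reached 1.01 among the alternatives. In replicates 1 and 2 it was at 3.64 and 4.03 CPM in FI3KO and at 1.49 and 2.45 CPM in WT.

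**Figure D4:**
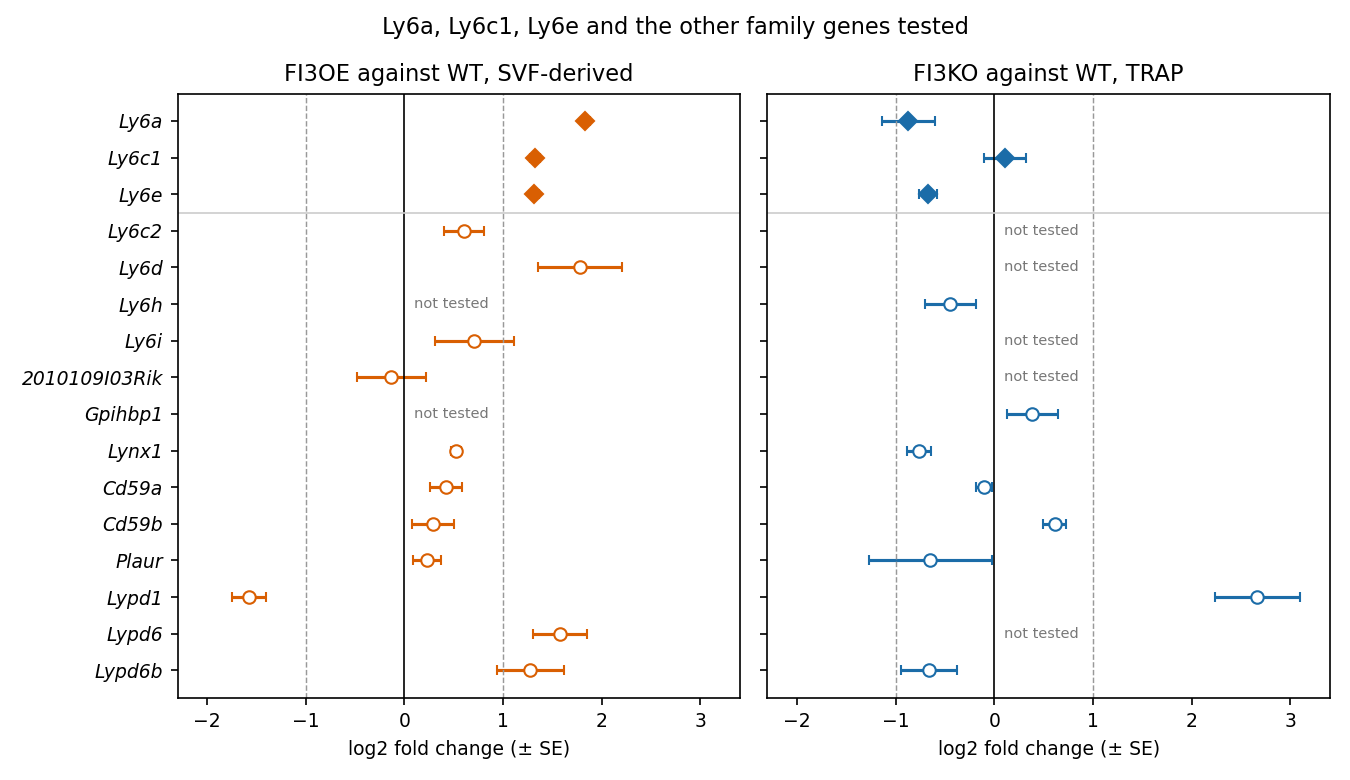
Fitted log2 fold change with its standard error for Ly6a, Ly6c1 and Ly6e (filled diamonds) and 13 other family genes tested in either comparison (open circles), FI3OE against WT on the left and FI3KO against WT on the right; dashed lines stand at -1 and 1. The 3 named genes lie beyond 1 on the left, and none of them lies beyond a dashed line on the right.

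The machinery that attaches these proteins to the membrane was followed in a list of 31 GPI anchor assembly genes. None met both cutoffs in either comparison, by edgeR or by DESeq2. By edgeR 1.99% of all genes tested were higher and 1.63% lower past both cutoffs in FI3OE, and 1.74% and 4.87% in FI3KO. For the counts below at an unadjusted p under 0.05 no share of all genes is given, so nothing is read from them. In FI3OE 31 were tested, 12 had an unadjusted p under 0.05, 4 were higher and 5 lower at an adjusted p of at most 0.05, and their median log2 fold change was 0.02, where 20.2% of all genes tested were higher and 16.8% lower. In FI3KO 30 were tested, 12 had an unadjusted p under 0.05, 6 were higher and 5 lower, and their median was 0.03, where 19.1% of all genes tested were higher and 18.3% lower.

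Interferon-stimulated genes gave a frame for the size of these differences. Of 38 such genes tested in FI3OE, 31 rose past both cutoffs and none fell, where 1.99% and 1.63% of all genes tested did. Their median log2 fold change was 1.31, close to the 1.32 of Ly6c1 and of Ly6e and below the 1.83 of Ly6a. The largest rises were those of Ifit3b (2.45, SE 0.081, adjusted p = 2.73e-09) and Ifit3 (2.34, SE 0.066, adjusted p = 1.08e-09), both antiviral proteins. In FI3KO 36 were tested, none rose and 1 fell past both cutoffs, Zbp1, a sensor of viral nucleic acids (-1.19, SE 0.248, adjusted p = 0.00295), where 1.74% and 4.87% of all genes tested did, and the median was -0.18. Without WT replicate 3 no gene of this list was called. At an unadjusted p under 0.05 there were 15. No share of all genes is given there, so that count is not read as a result. The DESeq2 Wald test called 2 of this list, and 934 genes in all. Ly6e, at -0.67, was thus further below WT than the middle gene of that list, while Ly6c1, at 0.11, was above it. Ly6a was at -0.87 over all libraries but had opposite signs in the 2 replicate sets.

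Around the 3 genes, the chromosome 15 cluster from Psca to Gpihbp1 (chr15:74714839-75599481) held 29 genes in the annotation, a window chosen after the values were seen. In FI3OE 9 others were tested, 2 rose past both cutoffs, Ly6d and Cyp11b1, a steroid hydroxylase gene (1.23, SE 0.250, adjusted p = 0.00242), and none fell, where 1.99% and 1.63% of all genes tested did. Without the fold-change cutoff 6 were higher, against 20.2% of all genes tested. In FI3KO 4 others were tested and none met both cutoffs, by edgeR, where 1.74% of all genes tested were higher and 4.87% lower. Lynx1 was lower at an adjusted p of at most 0.05, as given above, and Them6 was higher (0.27, SE 0.099, adjusted p = 0.0433).

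Finally, the genes whose pattern was most like each of the 3 were found from log2 CPM in the 18 libraries, each gene being set relative to its WT mean in each experiment, by the root mean square difference over 10546 genes. This is a description, and all genes share the same libraries. For Ly6a they were H2-Q7, H2-Q6 and H2-Q4, class I histocompatibility genes that resemble one another in sequence. They were at 0.22, 0.31 and 0.32, against a median of 1.00 over the genes ranked. H2-Q7 averaged 75.8 CPM in the WT cultures, 240 CPM in FI3OE, 13.8 CPM in WT TRAP libraries and 6.31 CPM in FI3KO. For Ly6e they were Samd9l and Gbp2, both antiviral, and Mlkl, the executor of necroptosis, at 0.15 to 0.16 against a median of 0.71. For Ly6c1 they were Dhx58, a regulator of RNA sensing, Lgals3bp and Pidd1, at 0.29 to 0.31 against a median of 0.64. Among themselves Ly6a and Ly6e were closest, at 0.40, which made Ly6e the gene at rank 10 for Ly6a. Ly6c1 was at 0.49 from Ly6e and at 0.65 from Ly6a. These choices depended on the centring: with each gene set relative to its mean over all libraries of an experiment, 3 of the first 3 genes were shared for Ly6a, 2 for Ly6c1 and 1 for Ly6e (Samd9l), and Ly6e moved to rank 14 for Ly6a.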

How the data were processed

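RNA was measured in 12 TRAP and 6 SVF-derived adipocyte libraries. The deposited tables hold, for 118733 transcripts, estimated counts (not normalized), TPM and effective length from Salmon 1.4.0, which the authors ran after fastp with correction for sequence and GC bias on GRCm38. Transcripts were assigned to genes with GENCODE release M21, without the version (117850 matched), and estimated counts were added up by gene, then rounded. CPM used the library total. TPM was summed per gene. Counts were fitted per experiment in R 4.3.3 with edgeR 4.0.16 (filterByExpr, TMM, quasi-likelihood test, Benjamini-Hochberg over all genes tested), and called at an adjusted p of at most 0.05 and a difference of 1 or more on the log2 scale. DESeq2 1.42.0 was an alternative, with other filters, scalings and subsets. Sequences were aligned with Biopython 1.88. In simulated data 200 genes were changed by a log2 fold change of 1.5. At an adjusted p of at most 0.05, without the fold-change cutoff, 89.5% (FI3OE, 11 false calls among 16105 genes) and 84% (FI3KO, 5 among 13624) were recovered. The simulated replicates were independent, without the split of TRAP replicates 1 and 2 from replicates 3 to 6.

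The 3 genes and all lists were chosen with earlier results of these data known. Named by rule were these genes, Irf3, every tested family gene, in each pathway list up to 2 called genes per direction and comparison, the 3 most similar genes, and abundant markers, of which some are not described. Defining or called markers, Cyp11b1 and Them6 were also named, after their values were seen. The interferon list holds genes the study itself follows, so its count is not independent evidence. Genes of the T and NK cell, mesothelial and epididymal lists are given in the closing section. Protein sequences were not used here. The study's text describes the SVF experiment, and the TRAP design comes from the labels.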

Additional observations from a re-analysis of the deposited data

Results flagged for a closer look

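Ly6c1 in FI3KO TRAP replicate 2 was at 4.12 CPM, while the other 5 FI3KO libraries were between 1.64 and 2.53 CPM. The library is listed because its gap to the nearest one was 0.643 of the whole range of the group. Among 24 sets of libraries examined in this way 1 was found, where chance alone gives 1.2, and the Ly6c1 values helped to choose the gene, so this is a description only. The same library had the highest sum of endothelial markers, 218 CPM against 49.9 to 135 CPM in the other FI3KO libraries, and their part in the value was not tested.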

How the results depend on the processing

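For Ly6a, Ly6c1 and Ly6e, 101 alternative values stayed within 1 SD of the reported log2 fold change and kept its sign, 3 moved further and 3 changed sign. In FI3KO, replicates 3 to 6 alone gave -1.52 for Ly6a and -0.15 for Ly6c1, and replicates 1 and 2 alone gave 0.41 for Ly6a, 0.55 for Ly6c1 and -0.45 for Ly6e; fewer samples enter each. Leaving out 1 library gave -0.10 to 0.21 for Ly6c1, -1.08 to -0.79 for Ly6a and -0.74 to -0.61 for Ly6e in FI3KO, and 1.78 to 1.86, 1.28 to 1.35 and 1.26 to 1.36 for Ly6a, Ly6c1 and Ly6e in FI3OE. For other family genes 304 alternative values kept direction and call, 4 lost the call, 2 gained it and 4 changed sign. The changes of sign were Gpihbp1 at -0.04 in replicates 3 to 6, Ly6h at 0.65 and Plaur at 2.32 in replicates 1 and 2, and 2010109I03Rik at -0.43 to 0.08 when leaving out 1 library (0.08 without FI3OE replicate 3).

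The count of genes called, 583 in FI3OE and 901 in FI3KO, became 342 and 1355 with all 18 libraries in 1 fit and 5960 and 5095 without the fold-change cutoff. In FI3KO it was 574 with at least 10 counts in every library, 1868 in replicates 3 to 6 and 191 in replicates 1 and 2. The family count in FI3OE, 4, became 2 with at least 10 counts in every library and 2 with all 18 libraries in 1 fit. In FI3KO, 1, it became 0 with at least 10 counts in every library, 3 in replicates 3 to 6, 0 in replicates 1 and 2 and 3 without the fold-change cutoff. GPI anchor genes became 9 in FI3OE and 11 in FI3KO without that cutoff. Interferon-stimulated genes in FI3KO, 1, became 2 by the DESeq2 Wald test, 2 with WT replicates 1 and 2 averaged, 2 with all 18 libraries, 3 in replicates 3 to 6, 8 without the cutoff, and 0 to 2 without 1 library. Except where fewer genes or samples enter, the cause was not tested.

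Same-numbered libraries did not deviate together (correlations -0.045 to 0.017 in the cultures and -0.291 to 0.104 in TRAP), and the fits given above did not pair them. With so few libraries per group, these correlations cannot decide whether same-numbered libraries shared a preparation. With the replicate number as a block, 579 genes were called in FI3OE and 736 in FI3KO, and Ly6a was at 1.83 and -0.89, Ly6c1 at 1.32 and 0.07, Ly6e at 1.31 and -0.67. Summing Ly6c1 and Ly6c2 gave 0.07 in FI3KO. Depth limits Ly6a and Ly6c1 in TRAP, where 53 to 239 reads stand behind a value.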

Other observations

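Adipocyte genes themselves moved in the TRAP libraries beside Ly6e. Cfd, which encodes adipsin, rose in FI3KO by a log2 fold change of 1.83 (SE 0.416, adjusted p = 0.00476 by edgeR), from 685 to 2395 CPM on average. Lep, which encodes leptin, fell by 1.63 (SE 0.180, adjusted p = 0.0001), from 9581 to 2975 CPM. In all, 2 of 16 adipocyte markers rose, the other being the glyceroneogenic gene Pck1 (1.36, SE 0.458, adjusted p = 0.0327), and 1 fell past both cutoffs, where 1.74% and 4.87% of all genes tested did. In FI3OE Pck1 fell by 1.17 (SE 0.129, adjusted p = 2.94e-05), the only 1 of the 16 past both cutoffs, where 1.63% of all genes tested fell.

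Both T and NK cell markers tested fell in FI3KO, Il7r by 2.21 (SE 0.632, adjusted p = 0.0156 by edgeR) and Trac by 1.47 (SE 0.354, adjusted p = 0.00645), where 4.87% of all genes tested fell. Of 7 mesothelial markers tested there, none met both cutoffs, where 1.74% of all genes tested were higher and 4.87% lower. None of the 7 had an unadjusted p under 0.05. No epididymal marker passed the filter for testing in either comparison. In FI3OE, 1 of 2 T and NK cell markers tested fell, Cd3d (by 1.13, SE 0.371, adjusted p = 0.0326 by edgeR), where 1.63% of all genes tested fell. None of 4 mesothelial markers tested in FI3OE met both cutoffs, where 1.99% of all genes tested were higher and 1.63% lower. Of these 4, 1 had an unadjusted p under 0.05. No share of all genes is given there, so nothing is read from it.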
